A study of Mus musculus with 12 samples.

Results

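The Notch genes of the mouse yolk sac were read across ectopic Norrin expression and developmental stage. The set holds 10 genes: the receptors Notch1, Notch3 and Notch4, the ligands Dll4, Jag1 and Jag2, and the transcription factors Hes1, Hey1, Hey2 and Heyl that Notch switches on. They were taken by name from the annotation of the Affymetrix mouse genome-wide array, which gives 20 probe sets to these genes alone. For each gene the probe set with the highest mean over 12 arrays was read first, and the other 10 probe sets are given beside it. All 10 genes were measured, among 18193 genes in all.

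Notch signalling passes between touching cells. A Delta or Jagged ligand on a cell binds a Notch receptor on its neighbour, gamma-secretase then cuts the receptor free of the membrane, and the released part joins the DNA-binding protein Rbpj to switch on Hes and Hey genes, whose products repress transcription. In mouse embryos Notch1, Dll4 and Jag1, and Hey1 together with Hey2, are needed for the first yolk sac vessels to be remodelled into a branched tree, and Dll4 and Notch mark arterial endothelium.

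Whole yolk sacs were profiled in 4 groups of 3 arrays. The Norrin E10.5 and Norrin E8.5 groups came from Z/Norrin mice, in which the secreted Frizzled4 ligand Norrin was expressed ectopically from a conditional over-expression allele, and the wild type E10.5 and wild type E8.5 groups were their controls, at embryonic days 10.5 and 8.5. All groups shared a mixed C57Bl6/129 background and mixed sex, and each array held a pool of 3 to 5 yolk sacs. The sources used here name neither the Cre driver nor the cells that made Norrin, and give no litter or batch. In whole tissue, fewer cells of a type and less RNA per cell cannot be told apart.

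Values are the deposited RMA log2 values, on which a difference of 1 is a 2-fold change; a level on this scale compares arrays for the same probe set, not genes with each other. Array medians lay between 6.97 and 7.01 at E10.5 and between 6.59 and 6.73 at E8.5. The mean of spike-in control probe sets at E8.5 was 11.85 in wild type replicate 3 and 11.82 in Norrin replicate 3. In the other E8.5 arrays it was 10.29 to 10.69. At E10.5 it was 10.43, 11.18 and 11.47 in Norrin replicates 1, 2 and 3. It was 10.62, 11.15 and 11.06 in the wild type replicates of that stage. What these differences did to the values was not tested. Arrays of a stage shared 26 to 93 identical values per pair, and the 36 pairs of arrays from different stages shared 0, as happens when each stage is normalized in its own run. Stage and normalization run therefore cannot be told apart. The median gene changed between stages by 0.15 in Norrin and 0.14 in wild type, and each stage difference below is to be read against that. Endothelial markers were read in every pool. The mean of 16 endothelial markers lay at 8.43 to 8.91 in the Norrin pools of E10.5, against 8.34 to 8.76 in the wild type pools. At E8.5 it lay at 8.69 to 8.90 in Norrin, against 8.60 to 8.99 in wild type, so these ranges overlapped at both stages. A mean of 6 trophoblast genes stood out in Norrin E10.5 replicate 2 at 9.83, where the other 5 pools of that stage ran from 7.28 to 7.79. By genotype the E10.5 pools ran from 7.77 to 9.83 in Norrin and from 7.28 to 7.76 in wild type. At E8.5 the trophoblast mean was 8.08 in Norrin replicate 2 and 7.19 to 7.60 in the other 5 pools.

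RefSeq promoter sequences on mouse build GRCm38.p6 are shown for the genes on which the results turn: Hey2 and Jag1, which rose with stage in both genotypes, and Nrarp, a Notch feedback inhibitor and target that was the 1 pathway gene called for Norrin at E10.5. Each runs 5′ to 3′ from 250 bases before the gene's start to 50 bases after it. Capitals mark GTGGGAA, the letters that Rbpj binds, on either strand (TTCCCAC on the other), and CACGTG, an E-box that Hey proteins can bind.
Hey2, chr10:30842734-30843033, minus strand: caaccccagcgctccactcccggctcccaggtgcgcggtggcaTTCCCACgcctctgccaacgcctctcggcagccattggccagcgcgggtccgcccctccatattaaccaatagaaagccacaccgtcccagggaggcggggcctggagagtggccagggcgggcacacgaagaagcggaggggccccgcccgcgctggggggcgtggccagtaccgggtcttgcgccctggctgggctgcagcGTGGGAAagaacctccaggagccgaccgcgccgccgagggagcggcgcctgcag
Jag1, chr2:137116471-137116770, minus strand: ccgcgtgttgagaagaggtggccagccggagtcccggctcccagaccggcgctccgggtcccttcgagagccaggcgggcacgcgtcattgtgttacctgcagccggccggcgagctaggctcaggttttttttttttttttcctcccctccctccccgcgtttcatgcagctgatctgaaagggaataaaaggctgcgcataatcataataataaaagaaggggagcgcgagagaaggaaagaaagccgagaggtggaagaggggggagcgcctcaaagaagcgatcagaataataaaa
Nrarp, chr2:25180508-25180807, plus strand: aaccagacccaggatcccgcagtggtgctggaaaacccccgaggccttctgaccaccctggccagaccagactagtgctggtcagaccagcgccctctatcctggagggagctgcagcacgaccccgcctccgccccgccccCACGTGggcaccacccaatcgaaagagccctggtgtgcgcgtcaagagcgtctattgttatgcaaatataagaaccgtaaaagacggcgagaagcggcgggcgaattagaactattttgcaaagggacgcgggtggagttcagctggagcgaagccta

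Of the 10 genes, 7 had a window of this length (Notch1, Notch3, Notch4, Dll4, Jag1, Jag2 and Hey2). The Jag2 window, chr12:112929446-112929745 on the minus strand, lay wholly inside the gene as placed below, downstream of its start. The Notch3 and Notch4 windows were set a few bases off the gene starts placed below. GTGGGAA was found in 1 of the 7 windows, that of Hey2. The matches begin at -207 on the reverse strand of the window and at -4 on its forward strand, counted from the gene's start. Of 32851 windows of all genes, 6.38% held these letters on either strand. CACGTG was found in 0 of the 7 windows and in 7.15% of all windows; the Nrarp window held it at -108. The letters CTTTGAT, a match for the beta-catenin partner TCF, were in 0 of the 7 and in 3.73% of all windows. These are matches of letters, not sites shown to be bound. On the same build Hes1 lies at chr16:30065357-30067796, Hey1 at chr3:8663359-8667038 and Heyl at chr4:123233556-123249870. The receptors lie at chr2:26457902-26503822 (Notch1), chr17:32120820-32166896 (Notch3) and chr17:34564286-34588543 (Notch4), and the other ligands at chr2:119325784-119335666 (Dll4) and chr12:112907803-112929812 (Jag2).

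**Figure D1:**
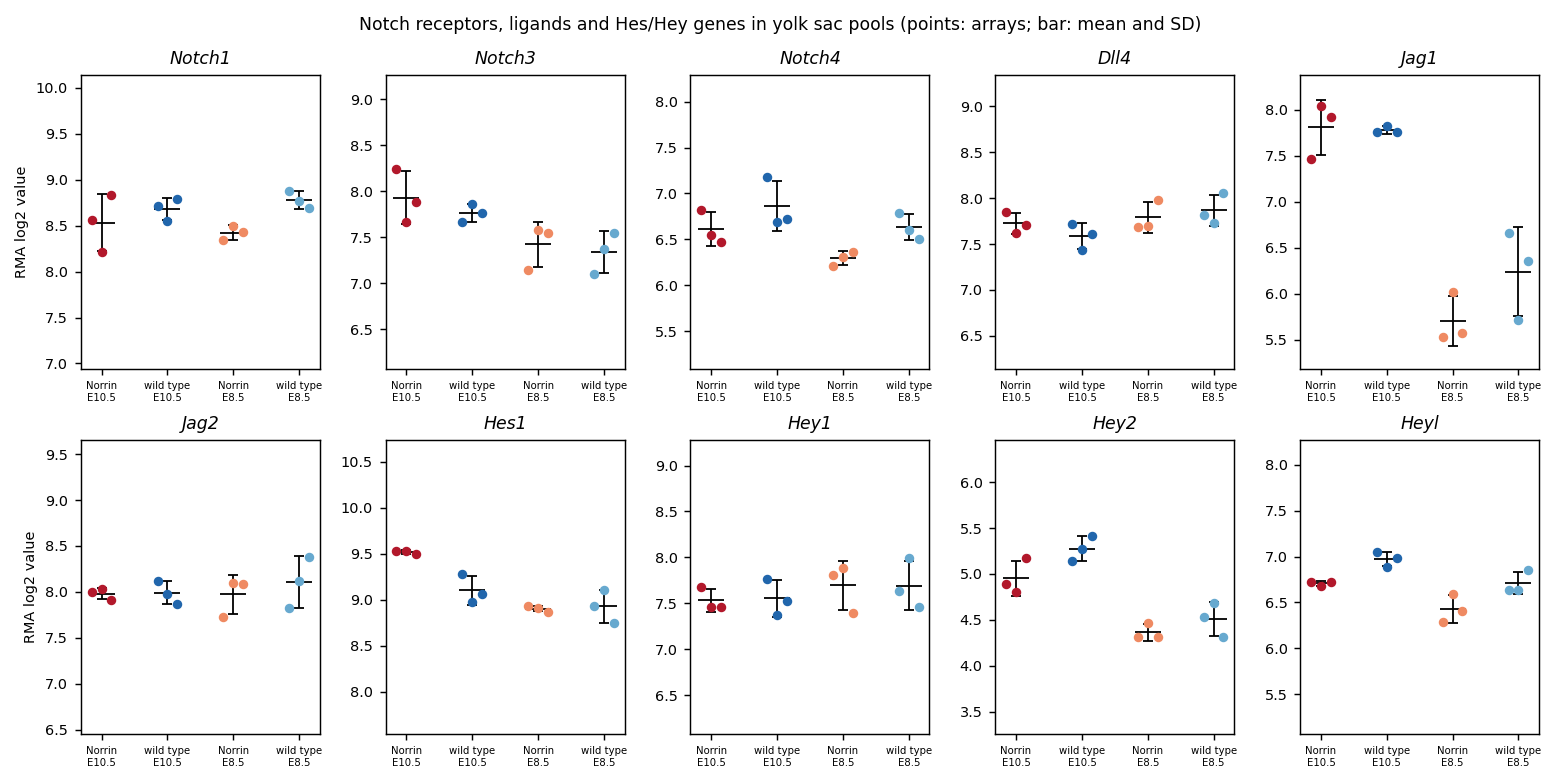
RMA log2 value (y axis, the same span in every panel) of the 10 genes in each of the 12 arrays by group (x axis), with the group mean and SD. Jag1 and Hey2 lie higher in all 6 E10.5 pools than in the 6 E8.5 pools, and Hes1 is highest in the 3 Norrin E10.5 pools, at 9.50 to 9.53.

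At E10.5 the largest Norrin difference among the 10 genes was in Hes1, the transcriptional repressor that many tissues switch on in response to Notch. Hes1 read 9.53, 9.53 and 9.50 in the Norrin pools, against 9.28, 8.97 and 9.06 in the wild type pools. All 3 Norrin pools lay above all 3 wild type pools, and the Norrin values were almost identical. The mean was 9.52 ± 0.02 in Norrin and 9.10 ± 0.16 in wild type (SD, n = 3 each), a log2 difference of 0.42 (SE 0.12, 95% interval 0.15 to 0.68), or 1.33-fold. By limma over all genes it did not pass the threshold of 0.05 (adjusted p = 0.0881). Deviations of same-numbered Norrin and wild type pools were positively correlated, at E10.5 with r = 0.51, 0.21 and 0.22. For differently numbered pools of E10.5, r ran from -0.35 to 0.16. With a block for each number in each stage, a fit outside the main test, Hes1 passed (limma adjusted p = 0.026). It was 1 of the 10 to do so, where 13.2% of all genes passed in that fit and 6.39% were higher.

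Differences in the Hey genes lay below 0. Hey2, a repressor of arterial and cardiac cells, read 4.89, 4.80 and 5.17 in Norrin E10.5 pools and 5.14, 5.27 and 5.41 in wild type E10.5 pools, a difference of -0.32 (limma adjusted p = 0.297; 0.0508 with the block). The groups touched at 1 pool each. Heyl, a Hey relative found in vascular smooth muscle, read 6.72, 6.68 and 6.72 in Norrin, against 7.05, 6.89 and 6.98 in wild type. These groups did not overlap, with a difference of -0.27 (95% interval -0.52 to -0.02; limma adjusted p = 0.299). The other 2 Heyl probe sets gave -0.16 and -0.33. Hey1, which acts together with Hey2 in vessels, averaged 7.53 ± 0.13 in Norrin and 7.56 ± 0.20 in wild type (SD, n = 3 each). Its difference was -0.03 with a 95% interval of -0.41 to 0.35.

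No ligand passed at E10.5. Jag1, a ligand of endothelium and mural cells, read 7.47, 8.04 and 7.92 in Norrin and 7.76, 7.83 and 7.76 in wild type, where the Norrin pools lay on both sides of the wild type pools. Its difference was 0.03 (95% interval -0.47 to 0.52), and the other 2 probe sets gave -0.12 and -0.21. Dll4, the ligand of arterial and sprouting endothelium, read 7.85, 7.62 and 7.71 in Norrin, against 7.72, 7.44 and 7.61 in wild type, with a difference of 0.13 (95% interval -0.16 to 0.43) and of -0.11 by its other probe set. Jag2 differed by -0.01 (95% interval -0.34 to 0.33). Its second probe set gave 0.26 with groups that did not overlap (adjusted p = 0.591, limma over all probe sets).

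Among the receptors at E10.5, Notch4, which is largely endothelial, read 6.82, 6.55 and 6.47 in Norrin pools, against 7.18, 6.69 and 6.72 in wild type pools. The difference was -0.25 (95% interval -0.58 to 0.08), and the groups overlapped. Without wild type E10.5 replicate 1, the pool at 7.18, it was -0.09. Its other 2 probe sets gave 0.08 and 0.04. Notch1 differed by -0.15, with 1 Norrin pool at 8.21 below the other pools at 8.56 and 8.83, and by 0.01 without that pool. Notch3, the receptor of mural cells, differed by 0.17 (95% interval -0.21 to 0.55).

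In all, 0 of the 10 genes passed at E10.5 by limma, and 3 had an unadjusted p under 0.05 (Hes1, Hey2 and Heyl). Over all genes 4.07% passed and 14% had an unadjusted p under 0.05. Groups did not overlap for 2 of the 10 (Hes1 higher, Heyl lower) and for 22.9% of all genes (11.4% higher and 11.5% lower). The median difference was -0.02 over the 10 genes and 0.00 over all genes.

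**Figure D2:**
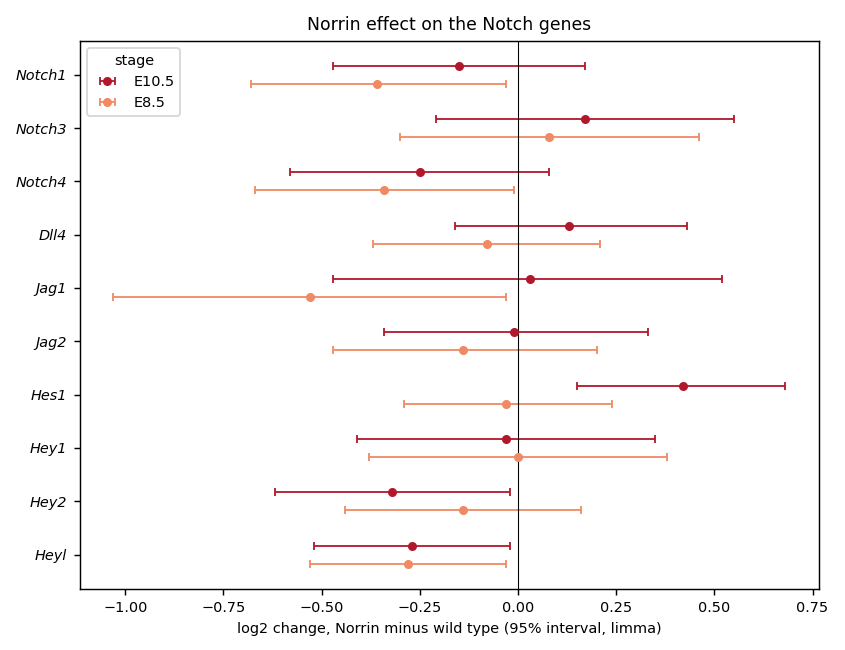
Norrin minus wild type log2 difference (x axis) for each gene (y axis) at E10.5 and at E8.5, with 95% intervals from limma. The Hes1 interval at E10.5 runs from 0.15 to 0.68, and Heyl lies at -0.27 at E10.5 and at -0.28 at E8.5.

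At E8.5 none of the genes passed, and most differences lay below 0. Notch1, the receptor needed in yolk sac endothelium, read 8.34, 8.50 and 8.43 in Norrin pools, against 8.88, 8.77 and 8.69 in wild type pools. The groups did not overlap, with a difference of -0.36 (SE 0.15; 95% interval -0.68 to -0.03; limma adjusted p = 0.673), and its other probe set gave -0.20. Notch4 read 6.21, 6.31 and 6.36 in Norrin and 6.79, 6.60 and 6.51 in wild type. It was lower in all 3 Norrin pools, with a difference of -0.34 (limma adjusted p = 0.678), while its other 2 probe sets gave 0.00 and -0.16.

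Heyl was also lower in every Norrin E8.5 pool, with 6.29, 6.59 and 6.41 in Norrin, against 6.64, 6.64 and 6.85 in wild type. The difference was -0.28 (limma adjusted p = 0.673), and its other probe sets gave -0.11 and -0.01. Jag1 read 5.53, 6.02 and 5.57 in Norrin and 6.66, 5.71 and 6.35 in wild type, so the groups overlapped. Its difference of -0.53 (95% interval -1.03 to -0.03; limma adjusted p = 0.678) stood beside -0.03 and -0.15 by the other probe sets. Leaving out 1 array moved it between -0.80, without wild type E8.5 replicate 2, and -0.32, without wild type E8.5 replicate 1. It was -0.69 without Norrin E8.5 replicate 2, the pool with the highest trophoblast mean.

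The remaining genes varied about 0 at E8.5. Hes1, the gene with the largest Norrin difference at E10.5, read 8.93, 8.91 and 8.87 in Norrin and 8.93, 9.11 and 8.75 in wild type, a difference of -0.03 (95% interval -0.29 to 0.24). Hey1, Dll4, Jag2, Hey2 and Notch3 differed by 0.00, -0.08, -0.14, -0.14 and 0.08. By limma 0 of the 10 passed and 4 had an unadjusted p under 0.05 (Notch1, Notch4, Jag1 and Heyl), where 0.077% of all genes passed and 7.22% had an unadjusted p under 0.05. Groups did not overlap for 3 of the 10, all lower, and for 11.9% of all genes, 6.02% lower. With the block 0 of the 10 passed, against 1.41% of all genes. The median difference was -0.14 over the 10 genes, of which 8 lay below 0, and -0.02 over all genes.

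The Norrin differences of the 2 stages were then set against each other in the same fit. Hes1 had a difference at E10.5 that exceeded its difference at E8.5 by 0.44 (95% interval 0.07 to 0.82; unadjusted p = 0.0235, limma adjusted p = 0.565; 0.139 with the block). Of the 10 genes 0 passed this test, 1 had an unadjusted p under 0.05, against 0.0934% and 7.01% of all genes; with the block it was 0 of the 10, against 2.07%. The mean of the Norrin differences over both stages was tested after the values of each stage were seen. Heyl had a mean difference of -0.27 (95% interval -0.45 to -0.10; unadjusted p = 0.00542, limma adjusted p = 0.101), and all 6 Norrin pools lay below all wild type pools of their own stage. Notch4 had -0.30 (limma adjusted p = 0.193) and Hey2 -0.23 (limma adjusted p = 0.276). In the same contrast the other probe sets of Notch4 gave 0.04 and -0.06, and those of Heyl -0.13 and -0.17. In this contrast 0 of the 10 genes passed, against 3.53% of all genes, and 5 had an unadjusted p under 0.05, against 14.9%. With the replicate block Heyl, Notch4 and Hey2 were lower (limma adjusted p = 0.032, 0.03 and 0.0469), in a fit where 13.5% of all genes passed and 6.37% were lower. Both effects lay below 0 for 5 of the 10 genes and for 32.3% of all genes.

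Between the stages, Jag1 rose most. It read 7.47, 8.04 and 7.92 in Norrin E10.5 pools, against 5.53, 6.02 and 5.57 in Norrin E8.5 pools. In wild type it read 7.76, 7.83 and 7.76 in E10.5 pools, against 6.66, 5.71 and 6.35 in wild type E8.5 pools. Every E10.5 pool lay above every E8.5 pool in both genotypes. The change was 2.11 in Norrin (SE 0.23; 4.3-fold; limma adjusted p = 3.8e-05) and 1.55 in wild type (SE 0.23; 2.92-fold; adjusted p = 3.7e-04), where the median gene changed by 0.15 and 0.14. Both other probe sets rose as well, by 1.12 and 1.93 in Norrin and by 1.21 and 2.00 in wild type.

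Hey2 was the other gene that rose in both genotypes. In Norrin it averaged 4.95 ± 0.19 at E10.5 and 4.37 ± 0.09 at E8.5, while in wild type it averaged 5.28 ± 0.14 at E10.5 and 4.51 ± 0.18 at E8.5 (SD, n = 3 each). Every E10.5 pool of a genotype lay above every E8.5 pool of it. The change was 0.59 in Norrin (limma adjusted p = 0.00536) and 0.77 in wild type (adjusted p = 0.00123). Its single probe set lay low on the scale in all 12 arrays, at 4.31 to 5.41. Where arrays were centred on their medians the Norrin change was 0.26 and did not pass (adjusted p = 0.155), nor did it with quantile normalization over 12 arrays (0.31, adjusted p = 0.134). The wild type call stayed under both other scalings.

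Hes1 and Notch3 rose with stage in Norrin by the main test. Hes1 changed by 0.62 in Norrin (limma adjusted p = 0.00194), and by 0.17 in wild type (adjusted p = 0.300). Centred on array medians, the Norrin change of Hes1 was 0.29 (adjusted p = 0.075). Notch3 changed by 0.51 in Norrin (limma adjusted p = 0.0361) and by 0.42 in wild type (adjusted p = 0.0839). Its second probe set gave -0.25 in Norrin and -0.19 in wild type. The Norrin call of Notch3 was lost under 4 of the 8 alternatives that leave out no array, both other scalings among them. It was also lost without any 1 of 4 of the 12 arrays. That these changes differ between the genotypes is the same test as above, which neither gene passed.

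Probe sets of the same gene disagreed on the stage change for several genes. For Dll4 the brightest probe set read 7.72, 7.44 and 7.61 in wild type E10.5 pools, against 7.82, 7.73 and 8.05 in wild type E8.5 pools, a change of -0.28 (limma adjusted p = 0.136). The second probe set read 6.99, 7.02 and 7.13 in the E10.5 pools, against 6.20, 6.17 and 6.44 in the E8.5 pools, a change of 0.78 (adjusted p = 6.9e-04, limma over all probe sets). In wild type neither probe set's groups overlapped, and they ran in opposite directions, so no direction is given for Dll4. For Heyl the 3 probe sets changed by 0.27, 0.37 and 1.37 in Norrin and by 0.26, 0.43 and 1.68 in wild type, in 1 direction but with the dimmest far ahead.

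Jag2 showed 0.01 in Norrin and -0.12 in wild type by its brighter probe set, and 0.71 in Norrin and 0.77 in wild type by its dimmer one (adjusted p = 0.00467 and 0.00331, limma over all probe sets). Notch4 changed by 0.32 in Norrin (limma adjusted p = 0.11) and by 0.23 in wild type (adjusted p = 0.265), while its other probe sets gave 0.71 and 0.51 in Norrin and 0.63 and 0.30 in wild type. With stage, 37.2% of all single probe sets passed in Norrin and 32.6% in wild type. Notch1 and Hey1 had no stage call by any probe set: Notch1 changed by 0.11 and -0.15 in Norrin and by -0.10 and -0.25 in wild type, and Hey1 by -0.16 in Norrin and -0.14 in wild type. Which transcripts or isoforms each probe set reads was not tested.

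**Figure D3:**
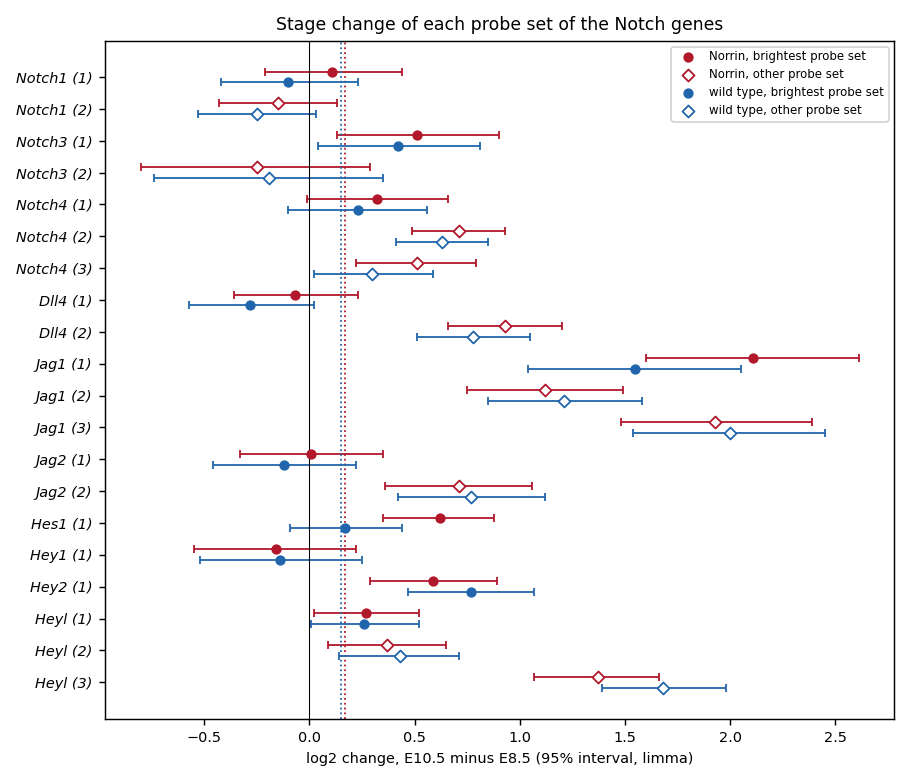
E10.5 minus E8.5 log2 change (x axis) of all 20 probe sets, numbered within each gene by brightness (y axis), in Norrin and in wild type with 95% intervals; dotted lines mark the median of all probe sets. The 3 Jag1 probe sets lie between 1.12 and 2.11, while the 2 Dll4 probe sets lie on opposite sides of 0.

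In total 4 of the 10 genes rose and 0 fell with stage in Norrin, where 37.9% of all genes passed, 28.2% higher and 9.69% lower. In wild type 2 rose and 0 fell, where 32.5% of all genes passed, 25.4% higher and 7.12% lower. Groups did not overlap between stages for 6 of the 10 in Norrin, all higher (51.7% of all genes, 36.2% higher), and for 5 in wild type, 4 higher and Dll4 lower (43.9% of all genes, 32.7% higher and 11.2% lower). Centring the arrays moved the change of the median gene to -0.18 in Norrin and -0.16 in wild type, and the share of higher genes among all calls to 30.7% and 33.2%, where it was 74.4% and 78.1% as deposited. Under it 1 of the 10 rose (Jag1) and 2 fell (Dll4 and Hey1) in Norrin, where 2432 of 18193 genes rose and 5483 fell. In wild type 2 rose (Jag1 and Hey2) and 2 fell (Dll4 and Jag2) under it, where 2333 of 18193 genes rose and 4704 fell. Jag1 was called higher under every scaling run in both genotypes.

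The order of the 4 group means separated the genes further. Jag1 was highest in Norrin E10.5 (7.81), then wild type E10.5 (7.78), wild type E8.5 (6.24) and Norrin E8.5 (5.71), and of these steps only that between the stages exceeded the spread of the pools. Hes1 was highest in Norrin E10.5 (9.52), then wild type E10.5 (9.10), wild type E8.5 (8.93) and Norrin E8.5 (8.90), and of these steps only the first exceeded the spread of the pools. Heyl had wild type E10.5 highest (6.97), then wild type E8.5 (6.71) and Norrin E10.5 (6.70), which overlapped, and Norrin E8.5 lowest (6.43). Hey1 means all lay between 7.53 and 7.70, and Jag2 means between 7.97 and 8.11, with overlap of all groups.

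Other genes of the pathway were read from a list of 40 genes, of which 37 were measured. By limma 1 of the 37 passed for Norrin at E10.5, where 4.07% of all genes did, and it fell. Nrarp, an inhibitor that helps to degrade the active Notch fragment, read 9.33, 9.13 and 9.18 in Norrin pools, against 9.53, 9.88 and 9.72 in wild type pools. All Norrin pools were lower, and the difference was -0.50 (SE 0.13; 0.707-fold; adjusted p = 0.0475, and 0.0218 with the block). Its second probe set gave -0.44 (adjusted p = 0.194, limma over all probe sets). The call lies close to the threshold: it was lost under 15 of 22 alternatives, with adjusted p-values from 0.00183 to 0.185, and the difference stayed below 0 under each of them. Nrarp and Hes1 are both Notch targets in other tissues; their differences at E10.5 were -0.50 and 0.42.

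The next largest E10.5 differences were in the ligand Dll1 (0.41; adjusted p = 0.105), the glycosyltransferase Poglut1 (0.41; adjusted p = 0.346), the gamma-secretase subunit Aph1b (0.40; adjusted p = 0.134) and the ubiquitin ligase Dtx4 (0.39; adjusted p = 0.176), none past the threshold by limma. With the replicate block 8 of 37 passed at E10.5, where 13.2% of all genes did. Dll1, Rbpj (0.36), Poglut1, Aph1b and Dtx4 rose in that fit, and Nrarp, the presenilin Psen2 (-0.35) and the Notch inhibitor Numb (-0.32) fell. At E8.5 0 of 37 passed by limma and 3 had an unadjusted p under 0.05. The largest differences were in Dtx4 (0.48; adjusted p = 0.406, and 0.0337 with the block), the gamma-secretase subunit Psenen (0.43), Dtx2 (0.37) and Poglut1 (0.32). The median difference over the 37 was 0.05 at E10.5 and 0.03 at E8.5.

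For the mean Norrin effect over both stages, the contrast added after the values were seen, 1 of the 37 passed by limma, where 3.53% of all genes did, and it rose. Dtx4, a Deltex-family ubiquitin ligase, read 8.59, 8.26 and 8.47 in Norrin E10.5 pools, against 8.26, 7.91 and 7.98 in wild type E10.5 pools. At E8.5 it read 9.56, 9.60 and 9.33 in Norrin, against 9.13, 9.03 and 8.88 in wild type. All Norrin pools lay above the wild type pools of their stage, at E10.5 by less than the second decimal for the nearest pair. The mean effect was 0.44 (SE 0.10; 95% interval 0.23 to 0.65; adjusted p = 0.0305), and the call was lost on leaving out any 1 of 8 of the 12 arrays (adjusted p up to 0.0834) and kept under the 9 alternatives that leave out no array. Nrarp had -0.28 (adjusted p = 0.141). With the block 5 of the 37 passed, all higher (Dtx4, Poglut1, Dtx2, Aph1b and Rbpj), where 13.5% of all genes passed.

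With stage, 12 of the 37 rose and 4 fell in Norrin, where 28.2% of all genes rose and 9.69% fell. In wild type 11 rose and 4 fell, where 25.4% of all genes rose and 7.12% fell. These counts and the changes below are on the deposited scale, where the median gene changed by 0.15 in Norrin and 0.14 in wild type. With centred arrays it changed by -0.18 in Norrin and -0.16 in wild type. Stage counts of the 37 under other scalings are not given here. Hes5, a repressor best known in neural progenitors, read 7.16, 6.91 and 7.07 in wild type E10.5, against 5.42, 5.24 and 5.65 in wild type E8.5, a change of 1.61 (limma adjusted p = 1.9e-05). Lfng, the Fringe enzyme that tunes which ligand a receptor answers to, changed by 1.34 (adjusted p = 5.8e-05) and Mib2, a ligase that acts on ligands, by 0.86. Notch2, the receptor outside the 10 genes, read 10.31, 10.36 and 10.43 in the wild type pools of E10.5, against 9.81, 9.68 and 9.10 in those of E8.5, a change of 0.84 (adjusted p = 0.00432). Dtx4 fell by 0.96 (adjusted p = 2.9e-04), and Poglut1 by 0.62 and the coactivator Maml2 by 0.50.

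**Figure D4:**
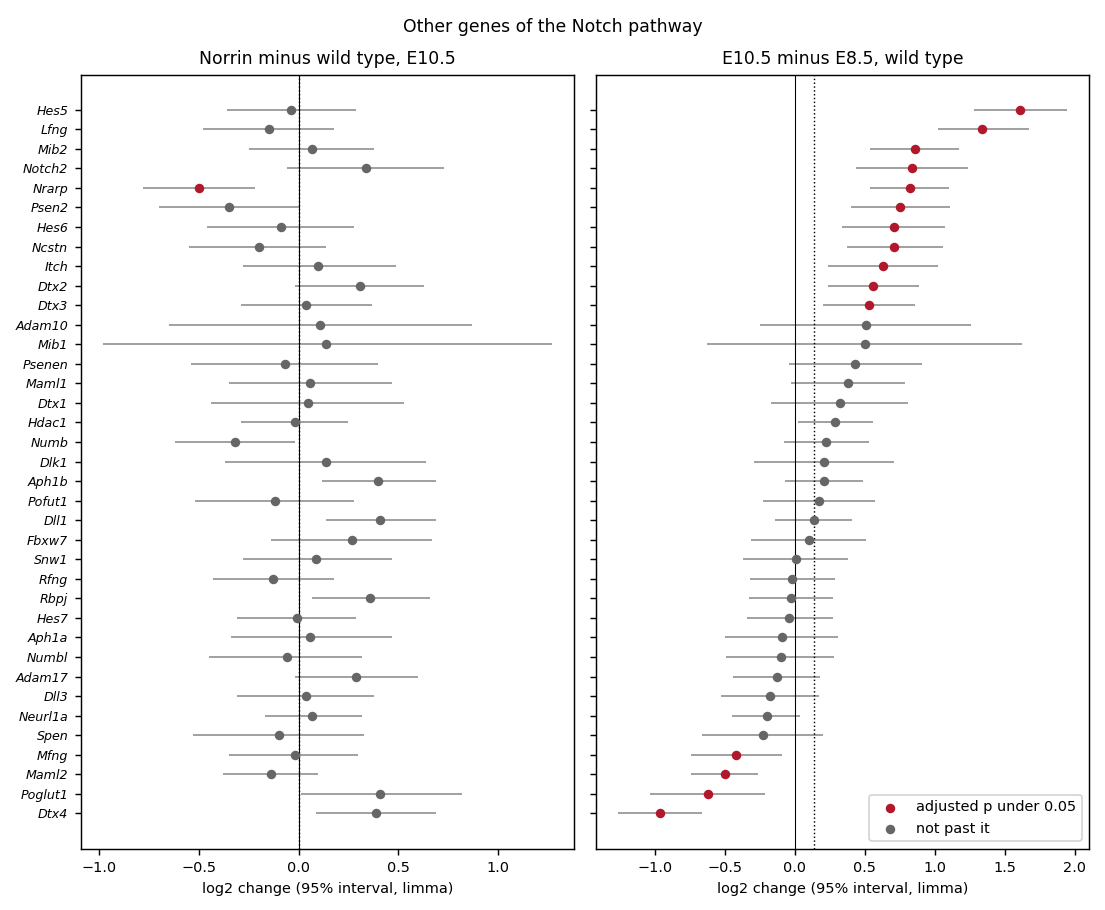
Log2 change (x axes) of the 37 other pathway genes (y axis) for Norrin minus wild type at E10.5 (left) and for E10.5 minus E8.5 in wild type (right), with 95% intervals; filled red points passed at an adjusted p under 0.05 and dotted lines mark the median gene. Nrarp at -0.50 is the single red point on the left, and 15 points are red on the right.

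Vessel genes were measured beside them. Of 9 arterial genes Sox17 (2.97) and the ephrin Efnb2 (0.62) rose and the connexin Gja4 fell (-1.03) in Norrin at E10.5, and Sox17 rose at E8.5 (2.71). Of the 9, called or not, 5 lay below 0 at E10.5 and 8 at E8.5. Of 16 endothelial genes the VEGF receptor Flt1 rose (1.69) and the diaphragm protein Plvap fell (-0.99) at E10.5, and 0 passed at E8.5. Of 5 venous genes 0 passed by limma at either stage, with 0 at an unadjusted p under 0.05. Of 10 mural genes Tagln (1.42) and Acta2 (0.54) rose at E10.5. Over all genes 4.07% passed at E10.5 and 0.077% at E8.5, and 14% and 7.22% had an unadjusted p under 0.05.

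Mean marker levels differed between the genotypes at E10.5, with no overlap of the pools, beside the Hes1, Heyl and Nrarp differences. The mural mean lay at 8.73 to 9.10 in Norrin and 8.54 to 8.58 in wild type, and the mesenchyme mean at 10.79 to 11.17 in Norrin and 10.57 to 10.68 in wild type. The parietal endoderm mean lay at 10.75 to 10.82 in Norrin and 10.14 to 10.39 in wild type. The trophoblast mean lay at 7.77 to 9.83 in Norrin and 7.28 to 7.76 in wild type, apart only in the second decimal. All 6 trophoblast genes lay above 0, with a median difference of 0.70. The erythroid mean was lower, at 10.04 to 10.13 in Norrin and 10.77 to 11.93 in wild type, as was the visceral endoderm mean, at 13.10 to 13.15 in Norrin and 13.41 to 13.55 in wild type. Decidua markers averaged 8.47 to 8.95 in Norrin and 8.15 to 8.23 in wild type. That list holds Des and Hand2, which are also in the mural and mesenchyme lists, so its mean is not maternal tissue alone. Arterial markers averaged 7.78 to 7.88 in Norrin and 7.50 to 7.67 in wild type. Of these 9 genes 5 lay below 0, with a median difference of -0.06, so the higher arterial mean does not stand for most of them. Neural markers averaged 5.96 to 6.05 in Norrin and 5.73 to 5.93 in wild type. At E8.5, beside the lower Notch1, Notch4 and Heyl values, the pools did not overlap for visceral endoderm (12.89 to 13.13 in Norrin and 13.38 to 13.40 in wild type), macrophage (6.69 to 6.90 in Norrin and 7.05 to 7.36 in wild type) and decidua markers (8.16 to 8.42 in Norrin and 7.88 to 8.11 in wild type). The part of these markers in the Notch gene differences was not tested. Without the pool with the high trophoblast mean, Norrin E10.5 replicate 2, the differences were 0.41 for Hes1, -0.26 for Heyl and -0.46 for Nrarp. With stage, the mural mean lay at 8.54 to 8.58 in wild type E10.5, against 7.61 to 7.92 in wild type E8.5, and the macrophage mean at 8.33 to 8.73, against 7.05 to 7.36, beside the rise of Jag1 and Hey2; their part in it was not tested.

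Likeness was measured over the 12 arrays as Pearson r of values centred on the mean of each stage, which leaves Norrin differences and differences between pools. Dll4 was most like F2rl3, a thrombin receptor (r = 0.98), Tox (0.94) and Dgkh (0.93). Notch1 was most like Klf14 (0.88), Nup210 (0.87) and Klf2 (0.86), the last a flow-induced factor of endothelium. Jag1 was most like the glypican Gpc4 (0.88), Slc16a12 (0.87) and the phosphatase Ptprj (0.81). Hes1 was most like Rnf146, Crebzf and Hgsnat (0.94 each), and Heyl most like Lrrc34 (0.93), Abcb11 and Arsg (0.92 each). Jag2 was most like Cnfn (0.98), Jph4 and Apc2 (0.96 each), and Hey1 most like Snrpb (0.95), Grwd1 (0.94) and Tomm34 (0.93). Hey2 was most like Rnf123 (0.93), Ank1 (0.89) and Hdhd5 (0.87). For Notch3 these were 2810433D01Rik (0.92), Gm20324 (0.91) and Sun5 (0.90), and for Notch4 Atp2c2 (0.93), Asb9 (0.90) and Panct2 (0.88). Among the 10 genes themselves the highest values were 0.71 for Notch1 with Hey2, 0.65 for Notch4 with Heyl and 0.62 for Notch1 with Heyl, and the lowest was -0.50 for Hes1 with Heyl. All these values share arrays, normalization run and pool, and the highest values over all genes are high by selection.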

How the data were processed

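The authors deposited 1 column of log2 values per array, with RMA as the method named in the submitters' processing notes, no version given; RMA corrects background, quantile-normalizes and summarises probes per probe set. The table held 45101 probe sets on 12 arrays. Of these 34945 were named by 1 gene in the platform annotation, and 932 with several genes, 9160 unnamed here and 64 controls were left out. The probe set with the highest mean stood for each of 18193 genes.

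Groups were compared by limma's two-sided moderated test (version 3.58.1, R 4.3.3), with 1 mean per group over 12 arrays (8 residual and 4.17 prior degrees of freedom) and Benjamini-Hochberg adjustment over all genes, threshold 0.05. Adjusted p-values are from it unless said otherwise; those of single probe sets are adjusted over 34945. The script was tested on simulated data. Arrays have no read depth, so their number limits precision. Replicates are separate pools, and 3 against 3 allows no exact permutation p below 0.1.

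Same-numbered Norrin and wild type pools deviated together from their group means (r = 0.73, 0.32 and 0.73 at E8.5, 0.51, 0.21 and 0.22 at E10.5), with numbers from the labels, so a fit with a block per number in each stage is given where it changes a call.

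The genes, lists, tests and alternatives were chosen with earlier results of these data known. All 10 genes are named; of the pathway list, those past the threshold for Norrin and the 4 with the largest change per Norrin contrast and, after subtracting the median gene, for the wild type stage contrast; of vessel lists, called genes among the 4 with the largest change; and the 3 most like genes per gene. Rbpj, Psen2, Numb, Mib2, Notch2 and Maml2 fall outside this rule and were named after their values were seen.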

Additional observations from a re-analysis of the deposited data

How the results depend on the processing

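The count of Notch genes called for Norrin at E10.5 stayed, over 22 alternatives, at 0 except for 1 (Hes1, higher) with quantile normalization over 12 arrays, with array weights and with the replicate block within the stage. For Norrin at E8.5 it stayed at 0 except for 2 lower (Notch1 and Notch4) with array weights, and for the difference between stages at 0 except for 1 (Hes1) with array weights. For the mean Norrin effect, chosen after seeing the data, it was 3 lower with array weights and 3 with the replicate block within the stage. With stage in Norrin, where the main count was 4, it was 7 with the mean of all probe sets. It was 2 with quantile normalization, where 3060 of all genes rose and 3587 fell. Over genes at or above the median level, which left Jag1, Hey2 and Notch3 untested, it was 1. Leaving out 1 array gave 3 to 4 (5242 to 7629 of all genes). In wild type, where it was 2, it was 4 with the mean of all probe sets and 5 with array weights. It was 4 with centred arrays (2 lower), where 2333 of all genes rose and 4704 fell. Over genes at or above the median level it was 0, where 4 of the 10 were tested and Jag1 and Hey2 were not. Leaving out 1 array gave 2 to 4 (4311 to 6285 of all genes), with 4 without wild type E8.5 replicate 3. For stage, counts over all genes under the probe set mean, array weights and the median level are not given here. Dll4 turned to 0.43 in Norrin with stage under the mean of all probe sets, since its probe sets oppose each other. A block within the stage gives no value for stage contrasts, which lie between such blocks. Counts over all genes moved too: for Norrin at E10.5 the 741 became 2400 with the block, 2316 with array weights, 472 over genes at or above the median level and 353 to 894 without 1 array, while the 14 of E8.5 became 257, 5147, 5 with the block across stages, 0 with the stage alone and 1 to 20 without 1 array. For the difference between stages the 17 became 2728 with array weights, 376 with the block and 5 to 36 without 1 array, and for the mean Norrin effect the 643 became 3992, 2465 and 352 to 606. Under a block across stages no Notch gene changed its call in any contrast. With array weights, the pathway genes that passed were 7 of 37 for E10.5 and 11 for E8.5. The causes were not tested.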
